A study of Mus musculus with 9 samples.

Results

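The expression of 8 genes of prostaglandin synthesis and reception was compared in 4T1 tumors from mice on a low-fat diet (LFD), a high-fat diet (HFD), and a high-fat diet with the LIFR inhibitor EC359. The genes were taken by name, with earlier results of these data known: Ptgs1, Ptgs2, Ptges, Ptgis, Ptgds and Hpgd for the enzymes, and Ptger2 and Ptger4 for the receptors. All 8 were among the 22609 genes listed in the count files. Counts of 5 of them (Ptgs1, Ptgs2, Ptges, Ptgis and Ptger4) were high enough to be tested, along with 13366 genes in all. The other 3 were too low in every group and are given as counts.

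Prostaglandins are short-lived lipid messengers made from arachidonic acid that phospholipases cut from membranes. The cyclooxygenases Ptgs1 (COX-1, present in most tissues) and Ptgs2 (COX-2, induced by cytokines and growth factors) turn it into prostaglandin H, which terminal synthases then convert into single products: prostaglandin E by Ptges, prostacyclin by Ptgis, and prostaglandin D by Ptgds. Hpgd is the dehydrogenase that starts the breakdown of prostaglandin E, and Ptger2 and Ptger4 are the receptors through which it raises cyclic AMP. In mammary tumors COX-2 and prostaglandin E are known for links to inflammation, vessel growth and immune suppression, and obese adipose tissue is known for high COX-2.

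4T1 is a mouse mammary carcinoma line used as a model of triple-negative breast cancer. BALB/c mice were fed for 6 weeks on diets in which fat gave 10% (LFD) or 60% (HFD) of the energy, 500000 4T1 cells were placed in the mammary fat pad, and the diets went on until the end. Once tumors had formed, the LFD and HFD groups got vehicle (0.3% hydroxypropyl cellulose) and the HFD + EC359 group got 5 mg/kg of EC359 into the peritoneum on 5 days a week. There were 3 libraries a group. There was no LFD + EC359 group, so an effect of EC359 on the low-fat diet was not measured. Age and sex of the mice are not given in the sources used here, nor whether each library came from its own animal. The p-values therefore measure the spread among these libraries only. Within each pair of libraries of a group, differences were set against counting error as a mean chi-square per gene. It was 1.40 to 1.51 in HFD and 1.42 to 1.56 in HFD + EC359, little above what counting error alone gives. In LFD it was 3.06 and 2.51 for the pairs with replicate 1, and 1.355 for the other pair.

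Libraries held 5085357 to 9751201 counts, at which the 3 counts that a count of 0 allows came to 0.308 to 0.59 CPM (counts scaled to a library of 1000000), for counting error alone. Levels within a gene are given as CPM scaled by TMM factors, and levels between genes as RPKM, which is CPM divided by the exon length in kilobases. The samples are labelled as the cell line but titled as tumors. The epithelial keratins Krt8 and Krt18 averaged 293 to 599 CPM in the 3 groups, Epcam 1.37 to 7.39 CPM and Krt19 0.612 to 1.07 CPM, while the fibroblast collagen Col1a1 averaged 1613 to 6870 CPM. Genes low in GC (under 45.8% of exon bases) stood below genes high in GC (over 55.4%) by 0.32 to 0.54 on the log2 scale in the LFD libraries, relative to the mean of all libraries, and above them by 0.10 to 0.16 in the HFD and 0.25 to 0.30 in the HFD + EC359 libraries. This shift followed the groups, so it cannot be told apart from them, and each gene below was also fitted after the trend over GC and exon length was taken out of every library.

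Between HFD and LFD tumors 4 of the 5 tested genes passed an adjusted p of 0.05. Ptgs2, Ptgis and Ptger4 were higher in HFD and Ptges was lower, while 51.8% of all tested genes passed (26% higher and 25.8% lower). With EC359 on the high-fat diet, 2 of the 5 passed, Ptgs2 and Ptgis, both lower than in HFD, beside 26.6% of all tested genes (12.7% higher and 13.9% lower). With library totals in place of TMM factors this background was 2096 genes higher and 1495 lower instead of 1697 and 1852. Between HFD + EC359 and LFD tumors, 3 of the 5 passed, Ptgs2 and Ptger4 higher and Ptges lower, beside 58.3% of all (29.2% higher and 29.1% lower). The stricter threshold, from the methods of the paper, was a fold change over 2 with an adjusted p under 0.01. A figure legend of the paper instead gives a log2 fold change of at least 2. At the threshold of the methods, Ptgis was the 1 gene of the 5 that passed in the first and in the second comparison (5.71% and 3.43% of all tested genes) and 0 passed in the third (5.09%). Ptgis was kept by the low-count filter through the HFD libraries alone, the group where it was high, so these counts are no support: without it 3 of 4 and 1 of 4 genes passed at 0.05 in the first 2 comparisons, and none of these 4 was past the stricter threshold by edgeR or DESeq2. Of all tested genes, 3.03% were past this threshold as higher and 2.68% as lower in the first comparison, 2.06% and 1.38% in the second, and 3.66% and 1.43% in the third. Groups did not overlap for 57.1%, 41.3% and 62.9% of the tested genes. Between HFD + EC359 and LFD edgeR put 3 of the 5 at an unadjusted p under 0.05 at any fold, and DESeq2 put 0 past the stricter threshold. The first 2 comparisons share the HFD libraries, so opposite directions in them are not independent. Shares this near the backgrounds are no result about the 5 genes, and the values of each gene follow.

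**Figure D1:**
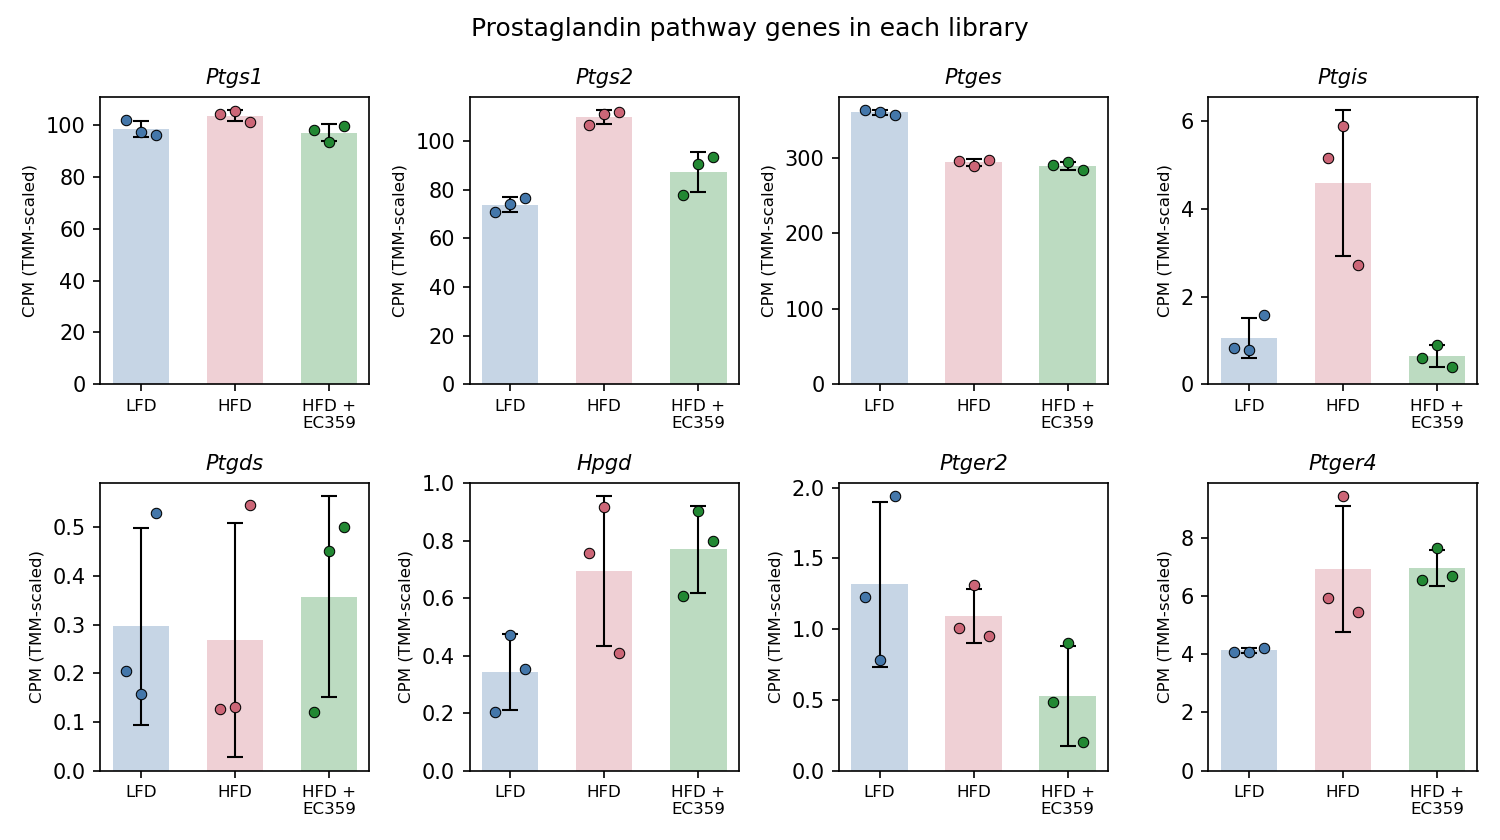
Level of each of the 8 genes in the 9 libraries, in TMM-scaled CPM on axes that start at 0 and differ between panels. Points are libraries, bars the group means and error bars the SD (n = 3). Ptgs2 and Ptgis stood highest in the 3 HFD libraries and Ptges in the 3 LFD libraries, and Ptgds, Hpgd and Ptger2 rested on 1 to 11 counts a library.

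**Figure D2:**
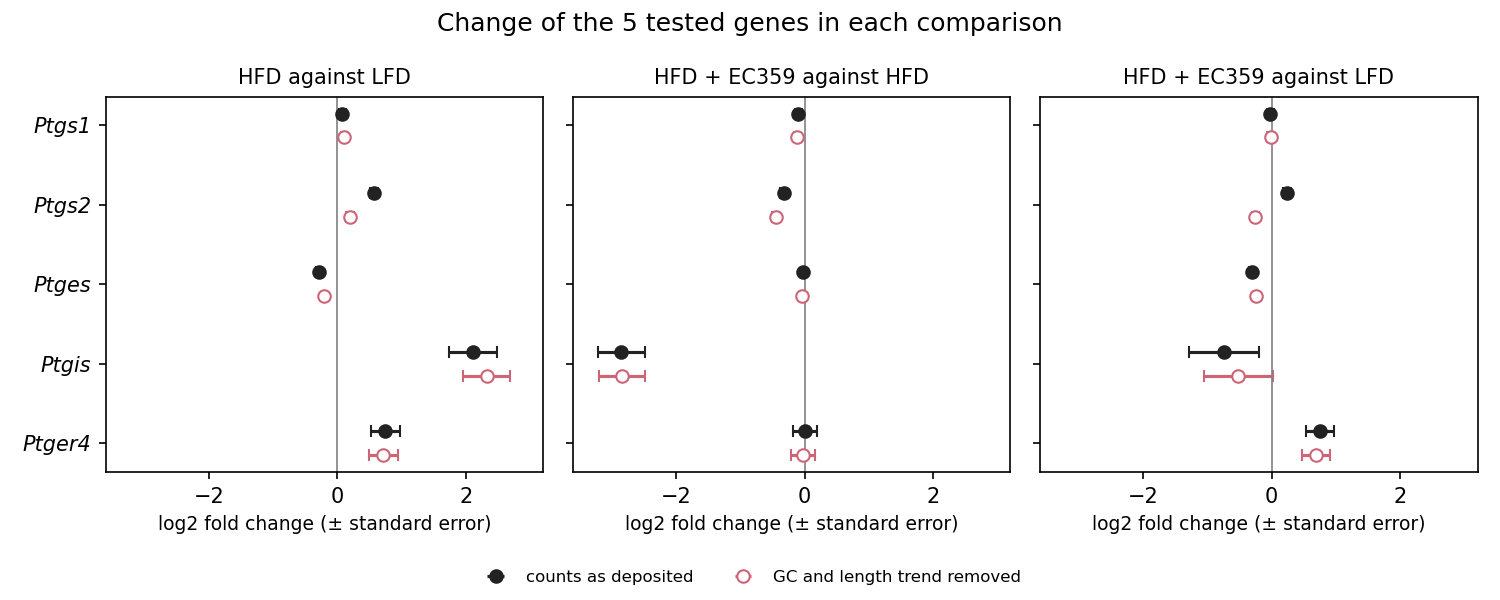
Log2 fold change of the 5 tested genes in the 3 comparisons, with its standard error as bars, which are hidden where shorter than the point. Filled points are from the counts as deposited and open points from the fit without the trend over GC and length. The Ptgs2 point of HFD + EC359 against LFD crosses 0, from 0.24 to -0.25, and no other called gene changes side.

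Of the cyclooxygenase genes, Ptgs2 passed in all 3 comparisons and Ptgs1 did not pass, while the test of their ratio, given below, could not reach 0.05 with 3 libraries against 3. Ptgs1 lies at chr2:36085946-36107789 on the plus strand (mm9), with 11 exons of 2864 bases in the gene model of the count files. It held 102, 97.5 and 96.1 CPM in the LFD libraries, 104, 105 and 101 CPM in the HFD libraries, and 98.0, 93.4 and 99.8 CPM in the HFD + EC359 libraries. The LFD and HFD ranges overlapped, and the HFD + EC359 libraries lay below the HFD libraries by less than the test could call. The log2 fold change was 0.08 (SE 0.052, edgeR adjusted p = 0.225) for HFD against LFD, -0.10 (SE 0.049, adjusted p = 0.155) for HFD + EC359 against HFD, and -0.02 (SE 0.051, adjusted p = 0.768) for HFD + EC359 against LFD.

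Ptgs2 lies at chr1:151947254-151955142 on the plus strand, with 10 exons of 4145 bases. It held 70.8, 74.3 and 76.7 CPM in LFD, 107, 111 and 112 CPM in HFD, and 77.9, 90.5 and 93.4 CPM in HFD + EC359 tumors. The 3 groups did not overlap, with HFD highest and HFD + EC359 between, though its replicate 1 lay just above the highest LFD library. Ptgs2 was higher in HFD than in LFD by 0.57 (SE 0.062, edgeR adjusted p = 3.02e-09), lower in HFD + EC359 than in HFD by a log2 change of -0.33 (SE 0.056, adjusted p = 2.92e-05), and higher in HFD + EC359 than in LFD by 0.24 (SE 0.063, adjusted p = 0.00135). The exons of Ptgs2 are 40.5% GC, among the low-GC genes defined above, so the shift described above touches it most among the 5. With the GC and length trend removed, HFD stood above LFD by 0.20 (edgeR adjusted p = 0.00668), HFD + EC359 below HFD by -0.45 (adjusted p = 9.50e-09), and HFD + EC359 below LFD by -0.25 (adjusted p = 0.00051). The decrease with EC359 on the high-fat diet thus held both ways, the rise with diet held at a smaller size, and the order of HFD + EC359 and LFD turned round. The summed endothelial markers had the group order of Ptgs2 as deposited, at 224 to 231 CPM in LFD, 397 to 429 in HFD and 318 to 333 in HFD + EC359, and their part in the Ptgs2 values was not tested.

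The 250 bases before the gene start are shown for the 3 genes with most counts, to set the start of the inducible Ptgs2 beside those of Ptgs1 and Ptges. They were read from mm9 on the gene's strand. Capitals mark matches, on either strand, to any of 6 motifs: the TATA box TATAAA, the cyclic AMP response element half-site CGTCA, the E-box CACGTG, the C/EBP palindrome TTGCGCAA, the STAT palindrome TTCNNNGAA, and the GC box GGGCGG.
Ptgs1, chr2:36085696-36085945, plus strand: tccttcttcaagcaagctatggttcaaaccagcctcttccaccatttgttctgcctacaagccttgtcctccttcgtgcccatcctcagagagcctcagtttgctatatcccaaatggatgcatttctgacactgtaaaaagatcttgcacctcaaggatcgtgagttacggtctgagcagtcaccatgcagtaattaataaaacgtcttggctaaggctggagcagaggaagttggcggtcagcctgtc
Ptgs2, chr1:151947004-151947253, plus strand: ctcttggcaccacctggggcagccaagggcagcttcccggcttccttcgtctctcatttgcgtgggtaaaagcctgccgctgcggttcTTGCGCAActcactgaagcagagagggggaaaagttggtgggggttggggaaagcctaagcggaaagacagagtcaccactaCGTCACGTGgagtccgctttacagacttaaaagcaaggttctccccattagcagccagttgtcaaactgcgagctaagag
Ptges, chr2:30758818-30759067, minus strand: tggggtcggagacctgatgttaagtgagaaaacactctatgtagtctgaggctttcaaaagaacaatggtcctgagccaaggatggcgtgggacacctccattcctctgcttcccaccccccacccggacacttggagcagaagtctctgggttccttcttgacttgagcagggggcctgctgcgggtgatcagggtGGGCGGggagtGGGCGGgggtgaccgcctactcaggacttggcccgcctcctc

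The Ptgs2 window held the C/EBP palindrome, its first base 162 bases before the start, and the CGTCA half-site at 80 bases, which shares 2 bases with an E-box at 77 bases. The Ptges window held GC boxes at 53 and 42 bases, and lies inside the Ptges gene of GENCODE, which starts further upstream. The Ptgs1 window held none of the 6. Among the other 5 genes the motifs occurred once, a GC box in the Hpgd window at 50 bases. The Ptger4 and Ptgds windows, and part of the Ptgis window, also lie inside the longer genes of GENCODE. Of 22421 such windows of the listed genes, 0.201% held TTGCGCAA, 20.7% CGTCA, 6.71% CACGTG, 43.5% GGGCGG, 12.0% TATAAA and 6.74% TTCNNNGAA. A match describes letters and not binding, and no match says only that the letters are not in the window.

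Per length, Ptgs1 was the more abundant cyclooxygenase transcript in all 9 libraries. It averaged 34.4 ± 1.10 RPKM (SD, n = 3) in LFD, 36.2 ± 0.728 in HFD and 33.9 ± 1.14 in HFD + EC359 tumors, against 17.8 ± 0.713, 26.5 ± 0.694 and 21.0 ± 1.99 RPKM for Ptgs2. The Ptgs2 share of both together was 32.4%, 34.5% and 35.5% in the LFD libraries, 41.4%, 42.1% and 43.3% in the HFD libraries, and 35.4%, 40.1% and 39.3% in the HFD + EC359 libraries. HFD was highest without overlap, while replicate 1 of HFD + EC359 lay within the LFD range. The share averaged 34.1% ± 1.61 in LFD, 42.3% ± 0.946 in HFD and 38.3% ± 2.48 in HFD + EC359, and their sum 52.2, 62.7 and 54.9 RPKM. A two-sided exact permutation test of 3 libraries against 3 gave p = 0.1, the smallest it can give, between the diets and also between HFD + EC359 and HFD, and p = 0.2 for HFD + EC359 against LFD (0.12, 0.12 and 0.2 after Benjamini-Hochberg adjustment over 12 such tests). The share rests on genes that differ in GC (51.1% for Ptgs1 and 40.5% for Ptgs2). From the fold changes of the 2 genes, the Ptgs2 to Ptgs1 ratio changed by a log2 value of 0.49 between LFD and HFD as deposited and by 0.09 with the trend removed, by -0.23 and -0.33 with EC359 on the high-fat diet, and by 0.26 and -0.24 between LFD and HFD + EC359.

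**Figure D3:**
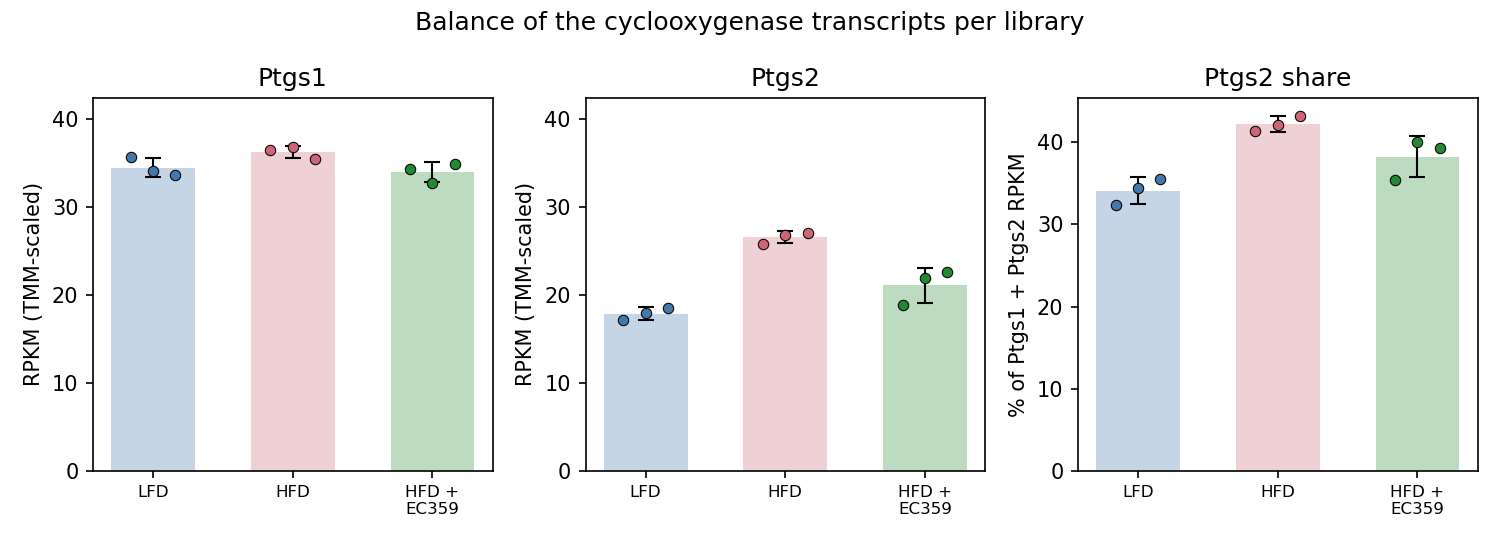
Per-length level (RPKM) of Ptgs1 and Ptgs2 and the Ptgs2 share of their sum (%) in each library, from the counts as deposited, on axes that start at 0. Points are libraries, bars means and error bars the SD (n = 3). Ptgs1 lay between 32.6 and 36.8 RPKM in all libraries, and the Ptgs2 share was highest in the 3 HFD libraries, at 41.4% to 43.3%.

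Ptges, the inducible microsomal synthase that makes prostaglandin E from the cyclooxygenase product, was the most abundant of the 8 and was lower on the high-fat diet with or without EC359. It lies at chr2:30744991-30758817 on the minus strand, with 3 exons of 3647 bases and 53.1% GC. It held 363, 360 and 357 CPM in LFD, 296, 289 and 297 CPM in HFD, and 290, 295 and 285 CPM in HFD + EC359 tumors. The LFD libraries lay above all 6 others, and the HFD and HFD + EC359 libraries overlapped. The log2 fold change was -0.29 (SE 0.037, edgeR adjusted p = 5.81e-08) for HFD against LFD, -0.31 (SE 0.037, adjusted p = 7.09e-09) for HFD + EC359 against LFD, and -0.02 (SE 0.036, adjusted p = 0.726) for HFD + EC359 against HFD. With the GC and length trend removed the first 2 were -0.21 and -0.25, and both passed. The 4T1 epithelial markers were, like Ptges, lower than in LFD in both other groups. Their sum averaged 1122 CPM in LFD, 709.6 in HFD and 772 in HFD + EC359, and all 4 tested were lower than in LFD in both. From HFD to HFD + EC359, where Ptges did not pass, 3 of them rose: Epcam (1.90), Cdh1 (1.75) and Krt8 (0.12). The part of these markers in the Ptges values was not tested.

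Ptges and Ptgs2 went in opposite directions between the diets. Its per-length level was 5.55 ± 0.268 times that of Ptgs2 in LFD, 3.04 ± 0.103 times in HFD and 3.80 ± 0.393 times in HFD + EC359 tumors (SD, n = 3), in RPKM of 98.8, 80.6 and 79.5 for Ptges. None of the groups overlapped, and the exact permutation p was 0.1 for each comparison (0.12 adjusted over the 12 tests). The log2 change of this ratio was -0.86 from LFD to HFD and 0.31 from HFD to HFD + EC359. With the GC and length trend removed these were -0.41 and 0.41, and HFD + EC359 against LFD went from -0.56 to 0.006.

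Ptgis, the prostacyclin synthase of vessel walls and stromal cells, showed the largest fold changes of the 5 at the lowest counts. It lies at chr2:167028696-167066037 on the minus strand, with 10 exons of 1751 bases and 57.2% GC. It held 4, 5 and 9 counts in LFD, 41, 45 and 20 counts in HFD, and 5, 8 and 4 counts in HFD + EC359 tumors. In CPM these were 0.818, 0.785 and 1.59, then 5.17, 5.89 and 2.73, then 0.606, 0.903 and 0.400. All HFD libraries lay above the other 6, replicate 3 by least, and LFD and HFD + EC359 overlapped. Ptgis passed the low-count filter through HFD alone, so a difference from the other groups was built into its being tested. Ptgis was higher in HFD than in LFD by 2.10 (SE 0.374, edgeR adjusted p = 1.82e-05) and lower in HFD + EC359 than in HFD by a log2 change of -2.85 (SE 0.366, adjusted p = 2.50e-07). Between HFD + EC359 and LFD it differed by -0.75 (SE 0.548, adjusted p = 0.248), which did not pass. The calls held without any single library, at 1.89 to 2.51 and at -3.18 to -2.58, with the trend removed, at 2.32 and -2.84, and with no filter, at 2.11 and -2.85.

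Stromal markers moved with Ptgis. The 7 fibroblast markers summed to 7753 to 9222 CPM in LFD, 13499 to 14248 in HFD and 3976 to 4081 in HFD + EC359 libraries. All 7 rose between LFD and HFD, and between HFD and HFD + EC359 4 fell and 1 rose. The 7 endothelial markers summed to 224 to 231, 397 to 429 and 318 to 333 CPM, with 7 higher between LFD and HFD and 5 lower with EC359. No gene of either list was at 0 in all libraries. The fibroblast sum was lowest in HFD + EC359, while the endothelial sum stayed above its LFD range. For Ptgis the HFD + EC359 and LFD libraries overlapped and their difference did not pass (-0.75, edgeR adjusted p = 0.248). The fibroblast sum was mostly collagen: between HFD + EC359 and LFD Col1a1 (-1.38), Col1a2 (-1.29) and Col3a1 (-1.01) were lower, but Dcn (1.34), Pdgfra (0.56) and Pdgfrb (0.23) were higher. In bulk tumors fewer cells of a type and less RNA per cell cannot be told apart, and the part of these markers in the Ptgis values was not tested.

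The other 2 enzymes were near the limit of detection. Ptgds, which makes prostaglandin D in brain and other tissues (chr2:25322232-25325269, minus strand), had 1, 1 and 3 counts in LFD, 1, 1 and 4 in HFD, and 1, 4 and 5 in HFD + EC359 tumors. Hpgd, the enzyme that breaks prostaglandin E down (chr8:58773349-58799843, plus strand), had 1, 3 and 2 counts in LFD, 6, 7 and 3 in HFD, and 5, 8 and 8 in HFD + EC359 tumors. The Ptgds groups overlapped, while the HFD + EC359 libraries lay above the LFD libraries for Hpgd. From the summed counts, Hpgd in HFD was 1.97 times its LFD level (95% counting interval 0.733 to 6.15) and in HFD + EC359 2.19 times (0.854 to 6.62), and Ptgds ratios lay from 0.887 to 1.41 with intervals from 0.226 to 4.71. These intervals cover counting error only, and all of them include 1, so no difference was detectable at this depth.

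The prostaglandin E receptors were far below the enzymes that feed them. Ptger4 (chr15:5183404-5193831, minus strand) held 4.09, 4.08 and 4.23 CPM in LFD, 5.93, 9.43 and 5.45 CPM in HFD, and 6.55, 7.67 and 6.70 CPM in HFD + EC359 tumors, from 20 to 72 counts. LFD was the lowest group without overlap, and HFD and HFD + EC359 overlapped. Ptger4 was higher than in LFD by 0.75 in HFD (SE 0.227, edgeR adjusted p = 0.00653) and by 0.75 in HFD + EC359 (SE 0.221, adjusted p = 0.00424), and HFD + EC359 differed from HFD by 0.0064 (SE 0.183, adjusted p = 0.985). The HFD difference rested on replicate 2, the library at 9.43 CPM: without it the change was 0.46 (adjusted p = 0.104). That of HFD + EC359 passed without any single library, at 0.68 to 0.79.

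Ptger2 (chr14:45607786-45623495, plus strand) had 6, 5 and 11 counts in LFD, 8, 10 and 7 in HFD, and 4, 8 and 2 in HFD + EC359 tumors. As summed counts, HFD + EC359 stood at 0.473 times HFD (95% counting interval 0.227 to 0.946) and 0.398 times LFD (0.188 to 0.813), while HFD stood at 0.840 times LFD (0.455 to 1.56). The first 2 intervals exclude 1 but leave out the spread between tumors. In an edgeR fit without the low-count filter, over 18251 genes, HFD + EC359 against LFD gave -1.29 (adjusted p = 0.0502) and HFD + EC359 against HFD -1.05 (adjusted p = 0.18), so neither passed. Ptger2 entered the filtered fit when LFD replicate 1 or 2 or HFD replicate 3 was left out, through LFD and HFD libraries alone. A lower HFD + EC359 level was thus built into its being tested. HFD + EC359 then stood below LFD by -1.34 (adjusted p = 0.0503), -1.61 (adjusted p = 0.0177) and -1.31 (adjusted p = 0.0416). The last 2 were past the threshold, and these calls are no support. DESeq2 with all libraries gave -1.34 (adjusted p = 0.0964). Per length, Ptger4 averaged 1.39, 2.34 and 2.35 RPKM and Ptger2 0.350, 0.290 and 0.140 RPKM in LFD, HFD and HFD + EC359 tumors, so Ptger4 was the more abundant receptor transcript in each group.

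By mean RPKM the 8 genes ordered in LFD as Ptges (98.8 ± 0.786), Ptgs1 (34.4), Ptgs2 (17.8), Ptger4 (1.39 ± 0.0279), Ptgis (0.607 ± 0.259), Ptgds (0.369 ± 0.251), Ptger2 (0.350 ± 0.154) and Hpgd (0.199 ± 0.0776). In HFD the order of Ptges, Ptgs1 and Ptgs2 was the same and Ptgis (2.63 ± 0.948) stood beside Ptger4 (2.34 ± 0.733). In HFD + EC359 Ptgis (0.363 ± 0.144) was back among Hpgd (0.448 ± 0.0875) and Ptgds (0.444 ± 0.256). The gaps between the 3 leading genes exceeded their SDs in every group, whereas those among the lowest 4 genes in LFD, and between Ptgis and Ptger4 in HFD, did not.

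The wider pathway was read from 8 lists that leave out the 8 genes, with 74 tested of 85 listed genes. Between HFD and LFD 16 were higher, 27 lower and 31 did not pass (51.8% of all tested genes passed, 26% higher and 25.8% lower), and the median change was -0.11 beside 0.0071 over all tested genes. With EC359 on the high-fat diet 18 were higher, 14 lower and 42 did not pass (median 0.04 beside 0.0056, and 26.6% of all passed). Between HFD + EC359 and LFD 17 were higher, 30 lower and 27 did not pass, where 58.3% of all passed. The counts of single lists below stand beside the same shares, and nothing is called particular to a list.

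Upstream of the cyclooxygenases, 9 of 13 genes for substrate release were tested, and between LFD and HFD 1 rose and 5 fell. The 1 that rose was Pla2g4a, the cytosolic phospholipase that supplies most arachidonic acid: it held 38.5 to 43.9 CPM in LFD and 60.5 to 69.9 CPM in HFD (0.63, SE 0.080, edgeR adjusted p = 6.13e-08, or 0.34 with the trend removed). In HFD + EC359 it held 52.4 to 61.0 CPM, and its decrease from HFD (-0.20, adjusted p = 0.035) lost its call without any 1 of 4 libraries (HFD replicate 1 or 2, or HFD + EC359 replicate 1 or 2), with library totals, with DESeq2 and with thinned counts. With the trend removed this decrease passed, at -0.31 (edgeR adjusted p = 0.00072). Mgll, which frees arachidonic acid from an endocannabinoid lipid, fell from 32.7 to 36.2 CPM in LFD to 19.5 to 20.8 CPM in HFD (-0.77, adjusted p = 1.15e-07). Pla2g6, a calcium-independent phospholipase, differed by -0.01 (adjusted p = 0.902), or by 0.22 (adjusted p = 0.00325) with the trend removed.

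The largest changes among the phospholipases were in 3 low ones found in stratified epithelia. Pla2g4e held 7.23 to 10.4 CPM in LFD, 0.252 to 0.786 CPM in HFD and 3.90 to 4.61 CPM in HFD + EC359. It fell by 4.23 on the log2 scale between LFD and HFD (edgeR adjusted p = 4.50e-12) and rose by 3.19 with EC359 (adjusted p = 4.26e-08). No HFD library of Pla2g4e reached the low-count filter, so a lower HFD level was built into its being tested. Pla2g4f fell by 2.33 and rose by 1.54, and Pla2g2f fell by 2.12 and rose by 2.10. The epidermis markers moved with them. Their sum, mostly the basal keratins Krt14 and Krt5, which mammary basal cells also make, ran from 1109 to 1276 CPM in LFD, 171 to 183 in HFD and 519 to 526 in HFD + EC359 libraries. Of the 7 epidermis markers tested, 5 fell with the high-fat diet and 6 rose with EC359. What part they had in the phospholipase values was not tested.

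Among the other synthases, 8 were tested, and 2 rose and 3 fell between LFD and HFD. Tbxas1, the thromboxane synthase of platelets and macrophages, rose from 4.50 to 7.23 CPM in LFD to 11.9 to 16.9 CPM in HFD (1.34, SE 0.19, edgeR adjusted p = 2.95e-07) and held 14.3 to 17.8 CPM in HFD + EC359 (0.22 against HFD, adjusted p = 0.23). Hpgds, the prostaglandin D synthase of mast cells and other blood cells, held 5.11 to 8.01 CPM in LFD, 8.95 to 11.0 in HFD and 16.1 to 18.1 in HFD + EC359. Its rise with EC359 was 0.81 (SE 0.13, adjusted p = 1.13e-05). Its rise with diet, 0.55 (adjusted p = 0.00865), lost its call without LFD replicate 1 (0.41) or HFD replicate 2 (0.45) and with the trend removed (0.24, adjusted p = 0.278). Mast cell markers summed to 88.6 to 94.5, 41.6 to 46.1 and 125 to 130 CPM in the 3 groups, and macrophage markers to 1471 to 1541, 1592 to 1635 and 2010 to 2032 CPM, with the macrophage sum in the group order of Hpgds. Of the 6 macrophage markers tested 4 were higher and 2, Mrc1 (-0.36) and Cd163 (-0.52), lower in HFD than in LFD. Their part in these values was not tested.

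Cbr2, a carbonyl reductase that can act on prostaglandins, fell by 0.77 on the log2 scale between LFD and HFD (56.5 to 57.9 against 33.1 to 33.8 CPM, edgeR adjusted p = 1.30e-09). With EC359 it rose by 0.29 (adjusted p = 0.00565), though not without HFD + EC359 replicate 3 (0.25, adjusted p = 0.0508). Akr1c18, of the aldo-keto reductase family whose close copies share reads, had 7 to 10 counts in LFD and 1 to 5 in HFD libraries (-1.92, adjusted p = 0.0039). No HFD library of Akr1c18 reached the low-count filter, so a lower HFD level was built into its being tested and the call is no support. Ptges3, the steady cytosolic prostaglandin E synthase and co-chaperone, differed by -0.09 between the diets (adjusted p = 0.104), or by -0.36 with the trend removed (adjusted p = 1.46e-07), and fell by 0.16 with EC359 (adjusted p = 0.00748, or -0.27 with the trend removed). Akr1b3, which overlaps another listed gene on its strand, differed by -0.04 and 0.04 (adjusted p = 0.721 and 0.768).

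Of 6 genes for inactivation and transport, 1 fell between LFD and HFD (Slco3a1, -0.73) and with EC359 it rose (0.61) while Slco2a1 fell. Slco2a1, the transporter that takes prostaglandins up for breakdown, was abundant, at 509 to 516 CPM in LFD, 501 to 518 CPM in HFD and 441 to 445 CPM in HFD + EC359. It differed by -0.01 between the diets (edgeR adjusted p = 0.734), or 0.11 with the trend removed (adjusted p = 0.00416), and by -0.20 with EC359 (adjusted p = 1.81e-05). Zadh2 and Ptgr2, reductases of oxidized prostaglandins, differed by -0.10 and 0.08 between the diets and by -0.03 and 0.08 with EC359, and none passed, though Zadh2 did between the diets with the trend removed (-0.20, edgeR adjusted p = 0.0484).

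Of 8 other receptors listed, 3 were tested: Ptgir for prostacyclin, Ptger1 for prostaglandin E, and Pparg, a nuclear receptor that binds a prostaglandin D product. In the first 2 comparisons 0 of them passed an adjusted p of 0.05, nor did any at an unadjusted p under 0.05 or by DESeq2. Ptgir, whose ligand Ptgis makes, held 4.71 to 5.11 CPM in LFD, 3.15 to 4.72 in HFD and 3.39 to 4.12 in HFD + EC359, with changes of -0.32 and -0.05 (edgeR adjusted p = 0.255 and 0.901). Ptger1 differed by -0.53 and 0.05, and Pparg by 0.32 and 0.44. Pparg was higher in HFD + EC359 than in LFD by 0.76 (adjusted p = 0.036). Without the trend over GC and length 0 of the 3 receptors passed in that comparison, and 0 with DESeq2.

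Downstream of the receptors, 15 genes of cyclic AMP signaling were tested, of which 5 rose and 2 fell between LFD and HFD (8 and 3 with the trend removed), and 2 rose and 5 fell with EC359, where 51.8% and 26.6% of all tested genes passed. Gnas, the stimulatory G protein, differed by -0.06 between the diets (edgeR adjusted p = 0.0972), and by 0.15 with the trend removed (adjusted p = 6.91e-05). With EC359 it fell by 0.17 (adjusted p = 5.50e-05), or -0.06 with the trend removed (adjusted p = 0.125). Prkar1a, a regulatory subunit of protein kinase A, fell by 0.27 and by 0.24 (adjusted p = 1.71e-06 and 2.64e-05), the first at -0.44 with the trend removed. Prkacb, a catalytic subunit, differed by -0.08 and 0.03, and passed between the diets with the trend removed (-0.27).

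Of 13 genes known to induce Ptgs2 (cytokines, their receptors and transcription factors), 9 were lower and 1, Tlr4, was higher in HFD than in LFD (6 and 1 with the trend removed), where 51.8% of all tested genes passed. Cebpb, the C/EBP factor that binds palindromes like that of the Ptgs2 window, held 957 to 1111 CPM in LFD, 735 to 789 in HFD and 639 to 671 in HFD + EC359. It fell by 0.41 and by 0.22 (edgeR adjusted p = 3.85e-10 and 6.49e-05), or by -0.08 and -0.05 with the trend removed (adjusted p = 0.0376 and 0.231). Jun, of AP-1, fell by 0.34 both times (adjusted p = 7.44e-08 and 2.26e-07), the first at -0.17 with the trend removed, and Tnfrsf1a, a TNF receptor, fell by 0.23 between the diets (adjusted p = 6.75e-05), or -0.04 with the trend removed (adjusted p = 0.458).

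Of 8 genes whose proteins bind Ptgs2 mRNA and set its stability, 5 rose and 3 fell between LFD and HFD, and 3 and 1 with the trend removed, when the median went from 0.24 to -0.02. Zfp36l1, which speeds decay of AU-rich messages, rose by 0.29 and by 0.24 (edgeR adjusted p = 3.12e-06 and 3.56e-05), to 202 to 209 CPM in HFD + EC359 from 140 to 144 in LFD. Khsrp, another decay factor, fell by 0.25 and by 0.16 (adjusted p = 6.01e-06 and 0.00257), the first at -0.05 with the trend removed (adjusted p = 0.255). Zfp36l2 fell by 0.14 between the diets (adjusted p = 0.00808), or -0.06 without LFD replicate 1 (adjusted p = 0.12) and -0.0061 with the trend removed.

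The lipoxygenase branch, which competes for arachidonic acid and makes leukotrienes, had 12 tested genes, of which 2 rose and 4 fell between LFD and HFD and 4 rose and 1 fell with EC359, where 51.8% and 26.6% of all tested genes passed. Alox12e, a lipoxygenase of epidermis, held 16.7 to 19.6 CPM in LFD, 2.10 to 3.15 in HFD and 8.85 to 9.82 in HFD + EC359. It fell by 2.70 and rose by 1.81 (edgeR adjusted p = 3.91e-14 and 3.44e-09). Ltb4r2, a leukotriene B receptor of keratinocytes, fell by 3.01 and rose by 2.11, and Alox8 had 11, 9 and 2 counts in LFD, 3, 0 and 0 in HFD, and 10, 14 and 9 in HFD + EC359 (adjusted p = 0.00146 and 0.00245). Alox8 was kept by the low-count filter without any HFD library, so a lower HFD level was built into its being tested. Ltb4r2 fell short of 10 counts in some library, so for it a lower HFD level may have been built in too. The means of Alox12e and Ltb4r2 followed the group order of the epidermis marker sum given above, while the LFD and HFD + EC359 libraries overlapped for Alox8.

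Other leukotriene genes are known from blood cells. Cysltr1, a receptor for cysteinyl leukotrienes, held 2.86 to 3.17 CPM in LFD, 6.16 to 7.57 CPM in HFD and 6.55 to 6.88 CPM in HFD + EC359 (1.16, edgeR adjusted p = 4.33e-05, between the diets, and -0.0034, adjusted p = 0.992, with EC359). With the trend removed its difference between the diets was 0.68 (adjusted p = 0.0156). Ltb4r1, the leukotriene B receptor of granulocytes, fell by 1.27 between the diets (9.10 to 10.8 against 4.09 to 4.32 CPM, adjusted p = 7.54e-07) and differed by 0.36 with EC359 (adjusted p = 0.173). Lta4h, which makes leukotriene B, rose by 0.31 between the diets (adjusted p = 0.000549). Alox5ap differed by -0.10 between the diets (adjusted p = 0.377), and its decrease with EC359 (-0.25, adjusted p = 0.0334) lost its call without any 1 of 4 libraries (HFD replicate 1 or 2, or HFD + EC359 replicate 1 or 2), with library totals, with DESeq2 and with thinned counts. With the trend removed this decrease passed, at -0.35 (edgeR adjusted p = 0.0025). Ltc4s, the synthase of cysteinyl leukotrienes, differed by -0.11 and 0.16 (adjusted p = 0.681 and 0.577).

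**Figure D4:**
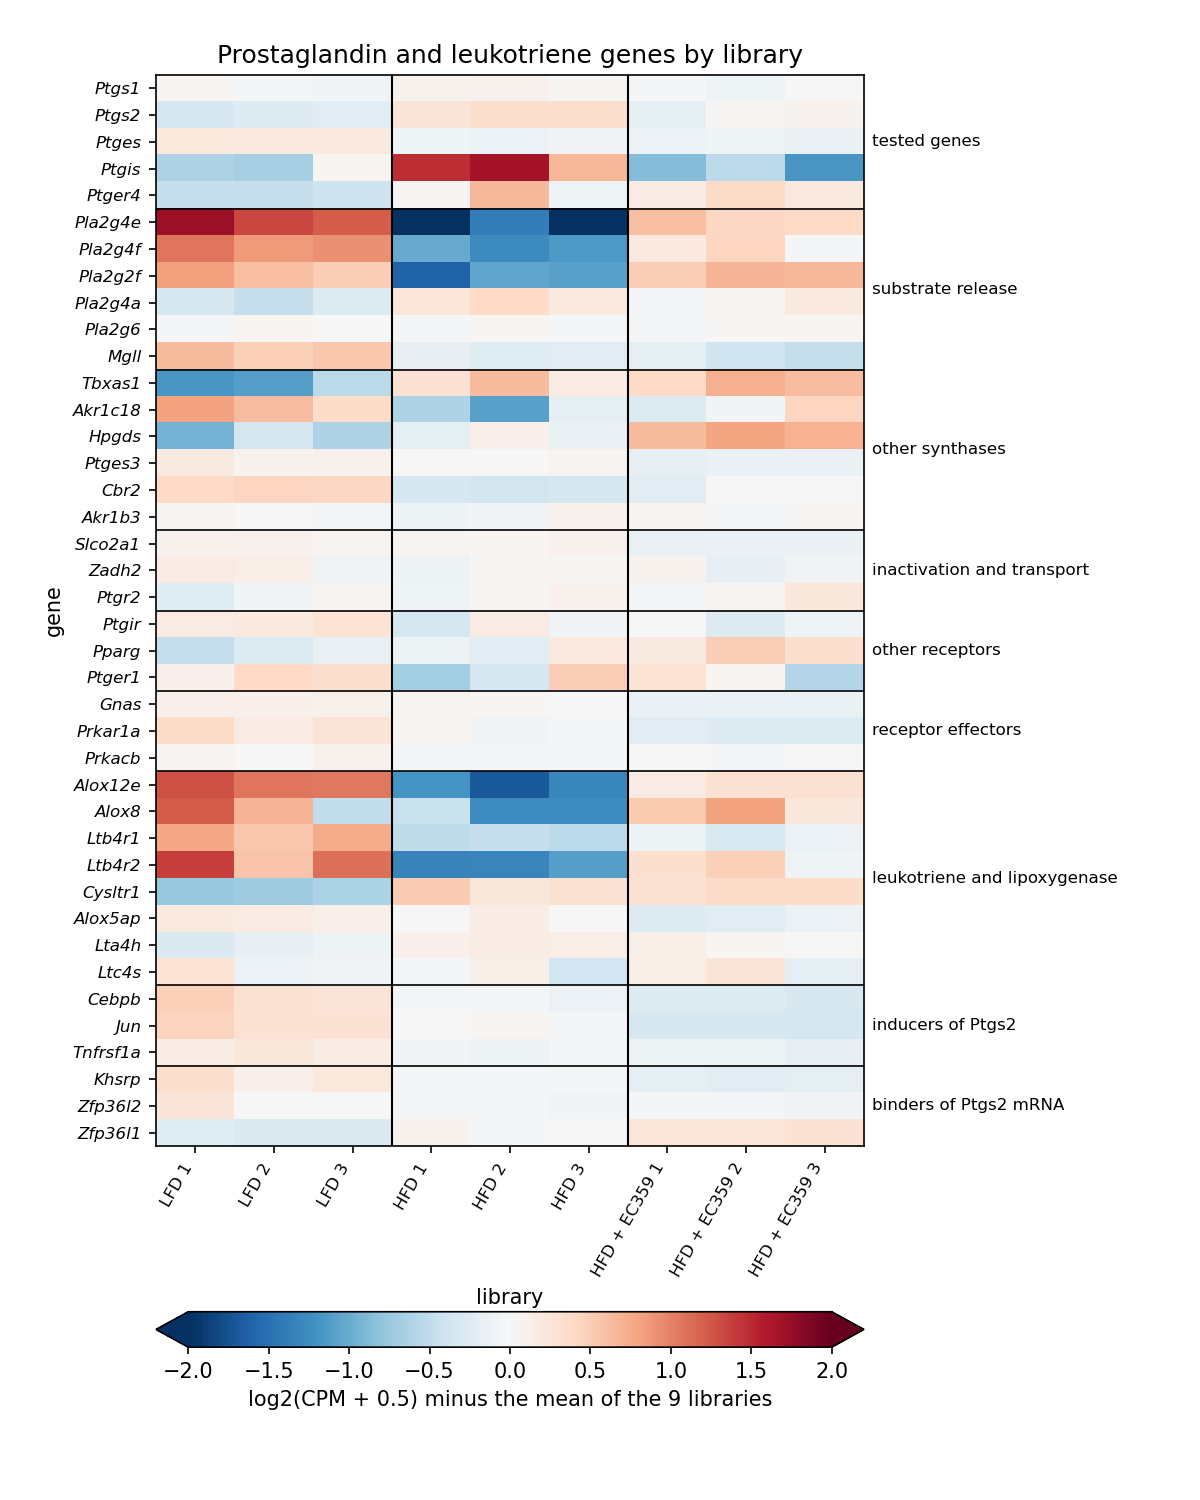
Level of the 5 tested genes and 35 genes of the pathway lists in the 9 libraries, as log2(CPM + 0.5) minus the gene's mean over the libraries (red above, blue below, capped at 2). Rows are grouped by list. Pla2g4e, Pla2g4f, Pla2g2f, Alox12e and Ltb4r2 are low in the 3 HFD libraries, where Ptgis is high.

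**Figure D5:**
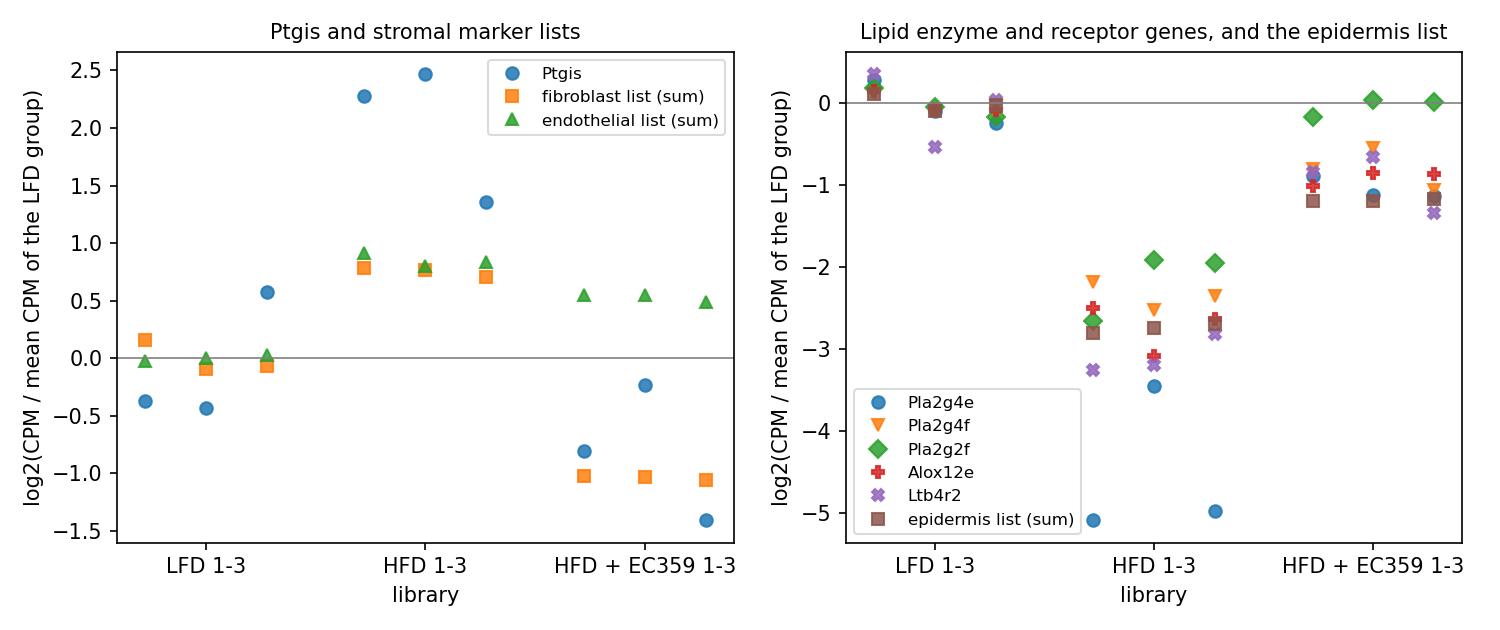
Level of each library relative to the LFD mean, as log2 of CPM over the mean CPM of the 3 LFD libraries. Left, Ptgis with the summed fibroblast and endothelial markers, and right, 5 lipid enzyme and receptor genes with the summed epidermis markers. Ptgis, the fibroblast sum, which is mostly collagen, and the endothelial sum are highest in the HFD libraries. The fibroblast sum is lowest in HFD + EC359, whereas for Ptgis the HFD + EC359 and LFD libraries overlap. Of the 7 fibroblast markers, 3 were higher and 3 lower in HFD + EC359 than in LFD. The epidermis sum is lowest in the HFD libraries at 171 to 183 CPM.

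Genes with the most similar pattern over the 9 libraries were found by Pearson's r of log2 CPM, among about 11248 genes of at least 5 CPM. They were Anxa6 (0.994), Runx1 (0.983) and Mmrn2 (0.980) for Ptgs2, and Unc45a (0.998), Ppap2c (0.997) and Cd163 (0.995) for Ptges. Ptgis was matched by Pcdh19 (0.977), Apol9b (0.970) and Tnfrsf9 (0.966), and Ptger4 by Prdm15 (0.955), Herc6 (0.955) and Tmco1 (0.951). For Ptgs1, whose groups differed least, they were Asap3 (0.939), 1190007F08Rik (0.937) and Dtx3 (0.915). The libraries share 3 group means and their GC shift, so any gene with the same group order scores high, and no test is given.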

How the data were processed

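RNA from 4T1 tumors was sequenced as 150-base read pairs from a stranded mRNA kit, 3 libraries each for LFD, HFD and HFD + EC359. The deposited values are expected counts per gene: per the file headers the authors ran featureCounts 1.5.0-p1 on an mm9 gene annotation, in reverse-stranded mode, with a mapping quality of at least 2 and with multi-mapping and overlapping pairs split into fractions. The labels name HISAT2 2.1.0 for the alignment, whereas the paper names TopHat2 and HTSeq. Splitting lowers the counts of genes with close copies. None of the 8 genes overlapped another gene on either strand.

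Counts were rounded, filtered with filterByExpr by group (minimum count 10, 13366 genes kept) and scaled by TMM in edgeR 4.0.16 (R 4.3.3, limma 3.58.1). One quasi-likelihood fit of all 9 libraries gave the 3 comparisons, with Benjamini-Hochberg adjustment over all tested genes and a call at an adjusted p under 0.05. The fit was tested on simulated data with no GC shift and with fewer changed genes than passed here, so that test does not cover these conditions. RPKM used the length column of the files. Totals of 5085357 to 9751201 counts set the precision, and intervals of ratios are exact at 95% for counting error. Exon GC and the printed sequences were read from mm9 (NCBIM37), for 22549 genes. The genes and the lists were chosen with earlier results of these data known. Named from the lists were genes past a fold of 2 and an adjusted p of 0.01 in any comparison, and the 3 of highest mean RPKM in each. Genes named outside this rule (Slco3a1, Tlr4, and markers) were chosen after their values were seen. Alternatives were RLE factors, library totals, DESeq2 1.42.0, other filters, 6 libraries at a time, a replicate block, removal of the GC and length trend (spline of 5 degrees of freedom), thinning to 5085357 counts, and leaving out each library. Protein sequences were not used here.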

Additional observations from a re-analysis of the deposited data

How the results depend on the processing

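The counts of passing genes among the 8 moved with the removal of genes with under 10 counts in any library, and with some single libraries left out. With that removal Ptgis was not tested, so 0 of the 8 genes passed the stricter threshold between HFD and LFD and 0 between HFD + EC359 and HFD, where 1 passed an adjusted p of 0.05. With single libraries left out, 3 to 4 of the 8 passed between HFD and LFD, 2 between HFD + EC359 and HFD, and 3 to 4 between HFD + EC359 and LFD. The fourth was Ptger2, which entered those fits through LFD and HFD libraries alone, so its call is no support. The pathway lists gave 42 to 45, 26 to 33 and 43 to 47 passing genes with single libraries left out. DESeq2 gave 16 higher and 25 lower, then 14 and 11, then 15 and 28 in the 3 comparisons. Between HFD + EC359 and LFD, library totals gave 22 higher and 26 lower (median -0.0014), and the fit with the trend removed 17 and 25. Of the called values of the 5 genes, that of Ptgs2 for HFD + EC359 against LFD changed sign, to -0.25 with the GC and length trend removed, and passed both ways. That of Ptger4 for HFD against LFD lost its call without HFD replicate 2 (0.46). Over all genes, DESeq2 called 2344 instead of 3549 between HFD + EC359 and HFD. At the stricter threshold 763, 459 and 680 genes passed in the 3 comparisons, against 356, 211 and 418 with at least 10 counts in every library, and 417 in the third with the trend removed.

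The other changes of sign were in log2 fold changes that did not pass as deposited. With the GC and length trend removed they were, between HFD and LFD, Pla2g6 0.22, Slco2a1 0.11 and Gnas 0.15, which then passed, and Akr1b3 0.041, Ptgr2 -0.18 and Ltc4s 0.17, which did not. Between HFD + EC359 and HFD they were Ptger4 -0.026, Akr1b3 -0.030, Ptgr2 -0.015 and Prkacb -0.0052. With library totals, which moved the median of all genes by at most 0.085, they were Ptges 0.011 and Cysltr1 0.029 between HFD + EC359 and HFD, Ptgs1 0.056 between HFD + EC359 and LFD, and Pla2g6 0.033, Akr1b3 0.0042 and Slco2a1 0.028 between HFD and LFD. With thinned counts they were Ptger4 -0.083, Pla2g6 -0.056 and Ptgir 0.048 between HFD + EC359 and HFD, and Pla2g6 0.011 between HFD and LFD. Leaving out single libraries gave, between HFD + EC359 and HFD, ranges of -0.14 to 0.29 for Ptger4, -0.067 to 0.088 for Cysltr1, -0.0063 to 0.032 for Pla2g6, -0.097 to 0.015 for Zadh2, -0.012 to 0.13 for Ptgr2, -0.19 to 0.10 for Ptgir and -0.27 to 0.65 for Ptger1. The ranges were -0.048 to 0.0078 for Ptgs1 between HFD + EC359 and LFD, and -0.031 to 0.0072 for Pla2g6 and -0.23 to 0.021 for Ltc4s between HFD and LFD. In a check chosen after seeing the data, the Ptgs2 share differed by 7.24 to 8.82 percentage points between HFD and LFD, by -4.90 to -2.58 between HFD + EC359 and HFD, and by 3.22 to 5.54 between HFD + EC359 and LFD. The log2 changes of ratios with the trend removed were also chosen after seeing the data.

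The labels give the groups the same replicate numbers, but the numbers did not pair the libraries. Correlations of their deviations lay between -0.030 and 0.017, and 0 of 9 libraries correlated best with its own number. With the replicate number as a block, Ptgs2 changed by 0.57, -0.33 and 0.24 in the 3 comparisons, and 4, 2 and 3 of the 8 genes passed, as without it.

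Depth limits Ptgds, Hpgd and Ptger2, at 1 to 11 counts a library, and Ptgis outside HFD. The GC shift follows the groups, and its cause was not tested, so the size of the Ptgs2 difference between the diets, and its sign between HFD + EC359 and LFD, cannot be told apart from it.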
